A study of Drosophila melanogaster with 12 samples.

Results

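The genes described here encode the proteasome of Drosophila melanogaster, taken as every probe set of the deposited table whose only annotated gene symbol starts with Prosalpha or Prosbeta, or with Rpn or Rpt followed by a digit. They came to 41 probe sets of 39 genes, out of 14010 probe sets on the array. D. mel-2 cells, a fly cell line of embryonic origin, were given RNA interference against U2AF50 or, as the control, a non-specific one, and RNA of their nuclei and of their cytoplasm was measured. U2AF50 is the larger protein of the splicing factor U2AF and binds the polypyrimidine tract before the 3′ splice site. The 4 groups were the nuclear and the cytoplasmic fraction of U2AF50-depleted cells and the nuclear and the cytoplasmic fraction of control cells, each with 3 samples on 1-colour Affymetrix arrays of the fly genome. Part of the labels add that the fractions came from hypotonic lysis, and none says that replicates were separate cultures, so each p-value rests on the scatter of these samples alone, and that scatter may be technical.

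The proteasome is the protease that degrades proteins marked with ubiquitin. Its 20S core is a barrel of stacked rings, the outer ones made of alpha subunits that gate the entrance and the inner ones of beta subunits, some of which carry the proteolytic sites. The 19S regulatory particle caps the barrel. The base of this cap is a ring of Rpt ATPases that unfolds substrates, with Rpn subunits that bind ubiquitin chains or their carriers, and its lid removes ubiquitin before degradation. Subunits are needed in fixed proportions, and in flies, as in other animals, proteasome genes are largely regulated together.

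The 41 probe sets covered 6 genes of the 20S alpha ring, 6 of the 20S beta ring, 4 ATPases of the 19S base, 3 other genes of the base, 7 of the 19S lid and 13 paralogs, which are close relatives of the main subunits with symbols ending in R or T and a number. Prosalpha1 shared its probe set with another symbol and was left out by the rule, and Prosbeta1, Rpt1, Rpt6, Rpn9 and Rpn10 were not analysed here. A probe set was tested if its mean over all 12 arrays lay above the 40th percentile of the table. In total 29 member probe sets of 28 genes passed, among 8379 probe sets tested. The 12 that did not pass were 11 paralogs and a dim further probe set for Prosalpha7, which read between 19.6 and 493 where the tested probe set for that gene read between 1051 and 3994.

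Values below are deposited linear intensities, with 1 value for each probe set on each array. Changes are differences of log2(intensity + 94.9) after quantile normalisation, from 1 limma fit over all 12 arrays with Benjamini-Hochberg adjustment over all 8379 probe sets, and a probe set was called at an adjusted p under 0.05. Every array was scaled to the same overall signal, so a nuclear over cytoplasmic change states a gene's share of the signal in each fraction and not its number of molecules. In bulk RNA, fewer cells holding a transcript and less transcript per cell cannot be told apart. Replicate arrays correlated at between 0.858 and 0.961, and no pair held the same values throughout. The correlations ran from 0.8582 to 0.8705 in depleted nuclei and from 0.9579 to 0.9606 in depleted cytoplasm. They ran from 0.9124 to 0.9324 in control nuclei and from 0.8897 to 0.9289 in control cytoplasm. The fit takes the same variance for every group of a probe set, so an SE does not show such differences. The ratio of the 3′ to the 5′ GAPDH control probe sets, a measure of RNA length, averaged 6.19 ± 2.07 in U2AF50-depleted nuclei and 2.90 ± 0.66 in U2AF50-depleted cytoplasm, and 6.24 ± 1.76 in control nuclei and 5.42 ± 2.17 in control cytoplasm (SD, n = 3 each). The U2AF50-depleted fractions did not overlap in this ratio, which gives p = 0.1, the smallest value that a two-sided exact permutation test of 3 against 3 arrays can give.

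U2af50 itself read 2718, 1738 and 1678 in depleted nuclei, against 1701, 1709.7 and 1589 in control nuclei. In the cytoplasm it read 1029.5, 1327 and 1143 after depletion, against 2474, 5606 and 4751 in the control. The cytoplasmic signal was lower in all 3 depleted samples, by a log2 change of -1.75 ± 0.26 (SE, adjusted p = 0.0012), while the nuclear change of 0.21 ± 0.26 did not pass the test (adjusted p = 0.738). Of 10 marker genes of plasmatocytes, the fly blood cells that D. mel-2 cells resemble, 9 were bright enough to test and NimC1 was not, with readings of 10.5 to 171. Among those 9, 8 were higher in the nuclear than in the cytoplasmic fraction under either RNA interference. Over all probe sets tested, 17.9% were called higher after depletion and 16.9% in the control. The median change over the 9 markers was 3.18 after U2AF50 depletion and 3.68 in the control, opposite in direction to the proteasome genes. The other one, srp, was lower in depleted nuclei than in depleted cytoplasm (-0.76, adjusted p = 0.0244) and did not pass in the control (0.01, adjusted p = 0.984). Whether this movement of the markers bears on the proteasome genes was not tested.

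The proteasome mRNAs made up a smaller share of the nuclear than of the cytoplasmic signal, whether or not U2AF50 had been depleted. The members had a median SE of 0.17, against 0.36 over all probe sets tested, so smaller changes could be called in them. After U2AF50 depletion 25 of 29 tested probe sets were lower in the nuclear fraction, or 86.2%, where 30.9% of all probe sets tested were lower. None was called higher, against 17.9% of all probe sets. Their median log2 change was -1.15, against -0.29 for all probe sets tested. The latter median moved with the brightness filter, to -0.03 without it and -0.42 with it at the 60th percentile. All 3 nuclear arrays lay below all 3 cytoplasmic arrays for 26 of 29 members, a pattern seen in 34.5% of all probe sets. In control cells 26 of 29 were lower, or 89.7%, against 25.2% of all probe sets tested, and again none was called higher, against 16.9%. Their median was -1.26, with -0.27 over all probe sets, and the nuclear arrays lay below the cytoplasmic ones for 27 members, a pattern that 34.5% of all probe sets showed. The treatments share no array. The GAPDH ratio and the hybridisation controls also differed between the fractions of depleted cells. The mean log2 of these controls was 14.21 ± 0.89 in depleted nuclei and 12.34 ± 0.215 in depleted cytoplasm (SD, n = 3 each). In control cells it was 13.77 ± 0.44 in nuclei and 13.49 ± 1.10 in cytoplasm. With the ratio or the controls as a covariate, 24 and 23 members were called lower in depleted nuclei. Over all probe sets, calls in either direction numbered 3124 with the GAPDH covariate and 2669 with the hybridisation one, against 4088 with neither.

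**Figure D1:**
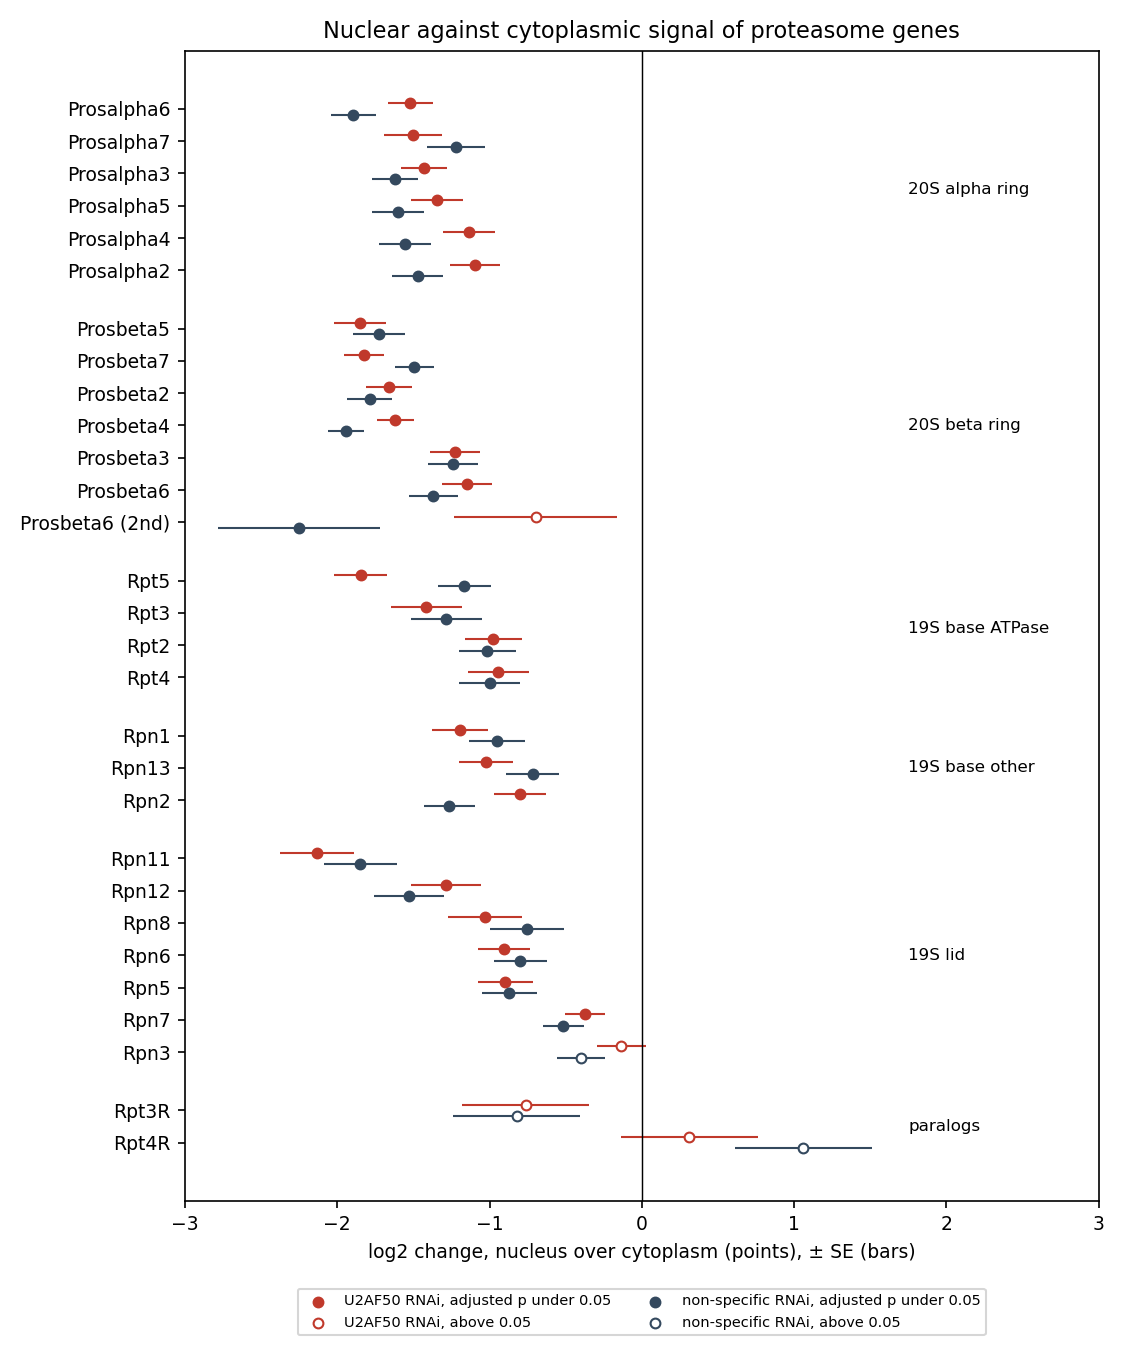
Log2 change of the nuclear over the cytoplasmic fraction for each of the 29 tested proteasome probe sets, grouped by role, after U2AF50 RNA interference (red) and non-specific RNA interference (blue). Points are fitted changes and bars their SE, from the fit over all 12 arrays with 3 per group. Each probe set has the same SE in both treatments, so the bars do not show the scatter within a group. Filled points passed an adjusted p of 0.05. Apart from Rpt4R, every point lies left of 0, and the 20S core lies further left than most of the 19S particle.

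The alpha ring of the 20S core was lower in the nuclear fraction at each of its 6 tested genes under both treatments. Prosalpha6, a ring subunit, read 3929, 4350.1 and 4024 in nuclei and 12252, 12325 and 12972 in cytoplasm after U2AF50 depletion. In control cells it read 3775, 3359.7 and 2643 in nuclei and 11484, 12519 and 10373 in cytoplasm. The nuclear samples were low and the cytoplasmic ones high in both treatments, with no overlap. The log2 change was -1.52 ± 0.15 after depletion (adjusted p = 1.70e-07) and -1.90 ± 0.15 in the control (adjusted p = 8.36e-09), so the nuclear signal was 2.87-fold lower after depletion and 3.72-fold lower in the control. Prosalpha2, 3, 4, 5 and 7, its neighbours in the ring, ranged from -1.50 to -1.10 after depletion and from -1.62 to -1.22 in the control. The medians of the ring were -1.39 after depletion and -1.58 in the control.

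The beta ring was lower in the nuclear fraction at 6 of its 7 probe sets after depletion and at all 7 in control cells. Prosbeta5 carries the chymotrypsin-like site of the proteasome, the one that most proteasome inhibitors bind. It read 2332, 2556 and 2232 in nuclei and 9648, 9478 and 8795 in cytoplasm after depletion. The control samples read 2653, 1782 and 3043 in nuclei and 7070.5, 8304 and 9151 in cytoplasm. Cytoplasmic samples were the high ones in both treatments and the fractions did not overlap, with log2 changes of -1.85 ± 0.17 after depletion (adjusted p = 9.67e-08) and -1.73 ± 0.17 in the control (adjusted p = 1.86e-07). Prosbeta2 carries the trypsin-like site. After depletion it read 3069, 2604 and 3662 in nuclei and 10361, 11053 and 10429 in cytoplasm, and under the control RNA interference 2414, 2361 and 2439 in nuclei and 6856, 9356 and 9276 in cytoplasm. The fractions of this catalytic subunit again stood apart, by -1.66 ± 0.15 after depletion (adjusted p = 6.95e-08) and -1.79 ± 0.15 in the control (adjusted p = 2.14e-08).

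Prosbeta4, a beta subunit without proteolytic activity, had the lowest adjusted p of the tested members in control cells. After depletion it read 5653, 6506 and 6396 in nuclei and 18317, 20018 and 17348 in cytoplasm. In control cells it read 5604, 5414 and 5238 in nuclei and 19388, 18271 and 18395 in cytoplasm. All cytoplasmic samples stood far above all nuclear ones, and the log2 changes were -1.62 ± 0.12 after depletion (adjusted p = 5.02e-09) and -1.94 ± 0.12 in the control (adjusted p = 3.59e-10). Prosbeta7, another non-catalytic subunit, read 2557, 2584 and 2879.8 in depleted nuclei and 9919, 10462 and 10573 in depleted cytoplasm, and 3772, 3162 and 3509 in control nuclei and 9091, 9645 and 9434 in control cytoplasm. Its log2 change was -1.82 ± 0.13 after depletion (adjusted p = 3.25e-09) and -1.49 in the control. Prosbeta3, also non-catalytic, showed -1.23 after depletion and -1.24 in the control, both past the test.

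Prosbeta6, a beta subunit known in flies for a dominant temperature-sensitive allele, was measured by 2 probe sets that did not behave alike. The brighter of them read 4766, 6859.5 and 8672 in depleted nuclei and 14597, 14223 and 13939.9 in depleted cytoplasm, against 5492, 5835 and 5722 in control nuclei and 14396, 12943 and 12920.0 in control cytoplasm. Its log2 changes were -1.15 ± 0.16 after depletion (adjusted p = 1.58e-05) and -1.37 ± 0.16 in the control (adjusted p = 1.89e-06). The dimmer one read 1164, 608 and 152 in depleted nuclei and 639, 989.7 and 744 in depleted cytoplasm, where the fractions overlapped and the change of -0.70 ± 0.53 did not pass the test (adjusted p = 0.296). In control cells the dimmer probe set read 333, 140.1 and 58.1 in nuclei and 1266, 1422 and 728 in cytoplasm, and its change of -2.25 ± 0.53 passed (adjusted p = 0.0023). The SE of the dimmer probe set was the largest among the 29 members.

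**Figure D2:**
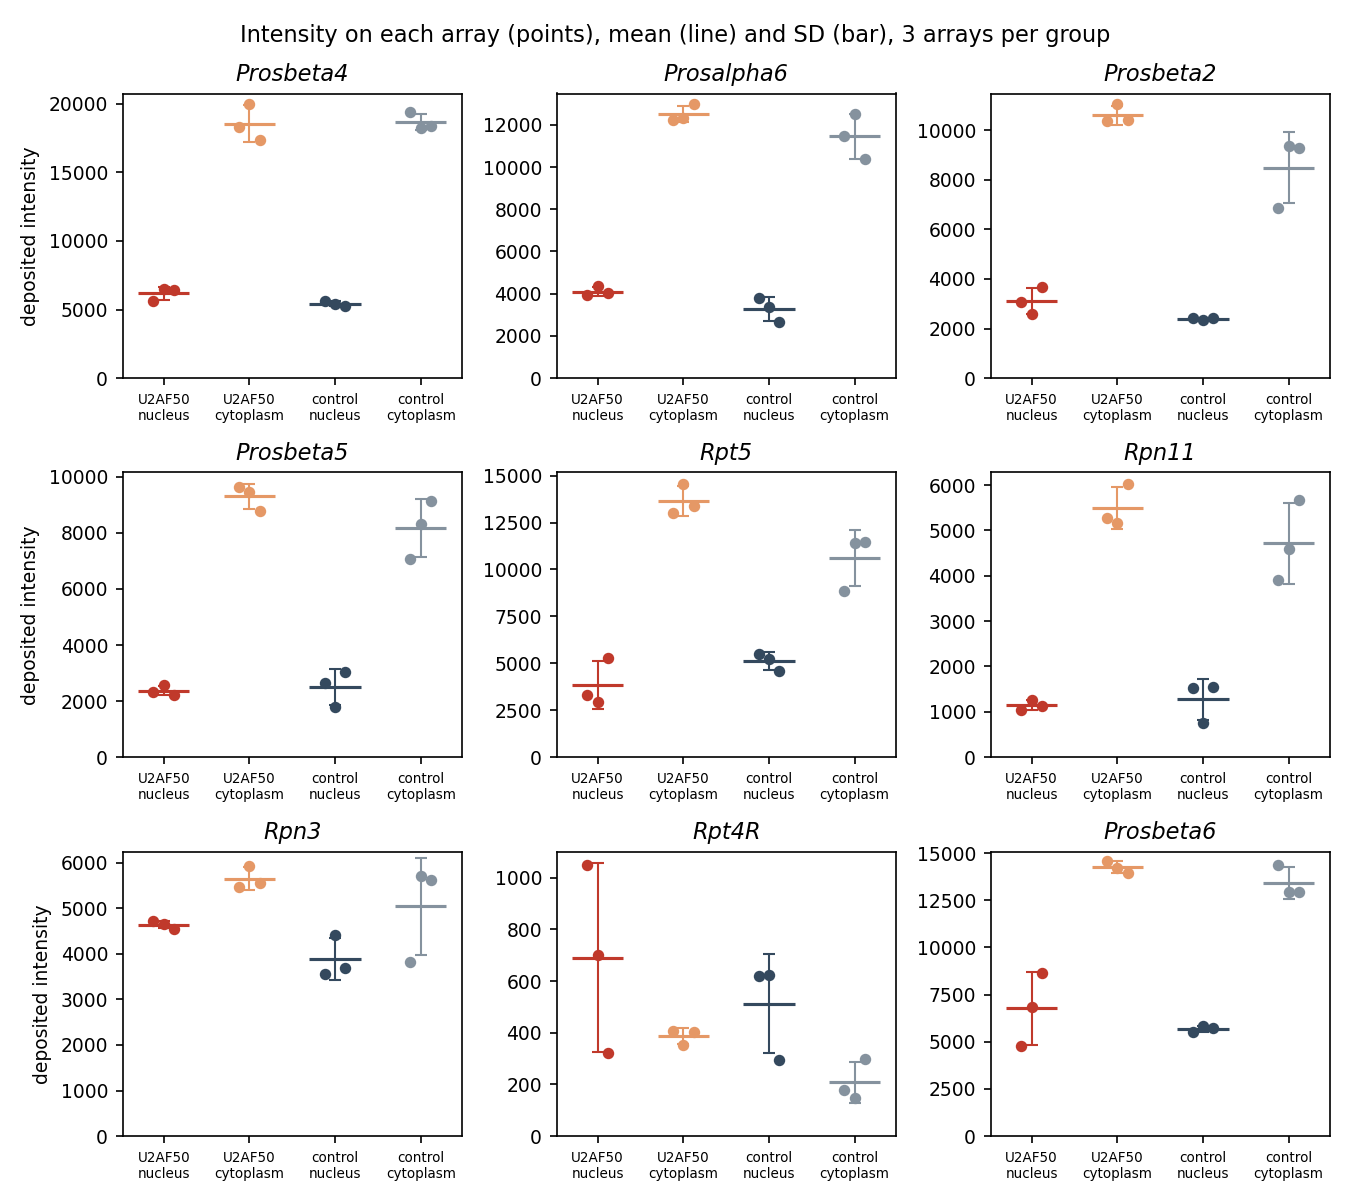
Deposited intensity of 9 proteasome probe sets on each of the 12 arrays; the vertical axes are linear, start at 0 and differ between panels, and "control" is non-specific RNA interference. Points are arrays, horizontal lines group means and vertical bars SD (n = 3). In 7 of the panels the nuclear points lie below the cytoplasmic ones in both treatments, with a narrow gap for Rpn3 after depletion and an overlap of the fractions for Rpn3 in the control and for Rpt4R.

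The ATPases of the 19S base, Rpt2, Rpt3, Rpt4 and Rpt5, form the ring that unfolds substrates and drives them into the core. All 4 were lower in the nuclear fraction in both treatments, with medians of -1.20 after depletion and -1.09 in the control. Rpt5, whose tail in yeast docks into the alpha ring and helps to open the gate, read 3318, 2939.7 and 5301 in nuclei and 13026, 14566 and 13380.3 in cytoplasm after depletion. In control cells it read 5514, 5228 and 4565 in nuclei and 8861, 11428 and 11473 in cytoplasm. The gap between the fractions was wider after depletion, with a log2 change of -1.85 ± 0.17 (adjusted p = 1.21e-07) against -1.17 ± 0.17 in the control (adjusted p = 2.62e-05), but the difference of -0.68 ± 0.25 between these changes did not pass the test (adjusted p = 0.264). Rpt2, Rpt3 and Rpt4 ranged from -1.42 to -0.94 after depletion and from -1.28 to -0.998 in the control.

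The other base genes were lower in the nuclear fraction as well. Rpn1, a scaffold that in yeast receives the shuttle proteins carrying ubiquitinated substrates, changed by -1.19 ± 0.18 after depletion and -0.95 ± 0.18 in the control. Rpn2, the larger scaffold, changed by -0.80 ± 0.17 after depletion and -1.26 ± 0.17 in the control. Rpn13, a ubiquitin receptor bound to Rpn2, changed by -1.03 ± 0.18 after depletion and -0.72 ± 0.18 in the control. All of these passed the test, with adjusted p of at most 0.003.

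The changes of the 7 lid genes ranged from -2.13 to -0.13 after depletion and from -1.85 to -0.40 in the control. Rpn11, the deubiquitinase that strips ubiquitin from substrates as they enter the proteasome, read 1039, 1262 and 1136 in nuclei and 5282, 5171 and 6016 in cytoplasm after depletion. In control cells Rpn11 read 1522, 746 and 1549 in nuclei and 3897, 4583 and 5662 in cytoplasm. All cytoplasmic samples were high and all nuclear samples low, with a 4.39-fold lower nuclear signal after depletion (-2.13 ± 0.24, adjusted p = 1.06e-06) and a 3.6-fold lower one in the control (-1.85 ± 0.24, adjusted p = 5.36e-06). Rpn12, which in yeast is the subunit that completes the lid, changed by -1.29 ± 0.23 after depletion and -1.53 ± 0.23 in the control. Rpn8, the inactive partner of Rpn11, changed by -1.03 ± 0.24 after depletion and -0.76 ± 0.24 in the control, and its control change missed the threshold without the first (adjusted p = 0.0664) or the third control nuclear sample (0.0638) and without the third control cytoplasmic sample (0.0643). Rpn5 and Rpn6, helical scaffold subunits of the lid, lay between -0.91 and -0.80 in the 2 treatments, and Rpn7, of the same kind, changed least among the lid genes called, by -0.37 ± 0.13 after depletion (adjusted p = 0.0279) and -0.52 ± 0.13 in the control (adjusted p = 0.00443). The call of Rpn7 after depletion was lost in 5 of 26 alternative settings, including without the first or second depleted cytoplasmic or the third depleted nuclear sample (adjusted p = 0.0806, 0.0909 and 0.0679).

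Rpn3, another helical scaffold subunit, was the 1 lid gene not called in either treatment. It read 4721, 4656 and 4556 in nuclei and 5461, 5936 and 5550.0 in cytoplasm after depletion. In control cells it read 3567, 4421 and 3682 in nuclei and 3818, 5714 and 5612 in cytoplasm. The deposited nuclear and cytoplasmic values did not overlap after depletion, by a narrow gap, and overlapped in the control through the first cytoplasmic sample. Neither log2 change passed the test, at -0.13 ± 0.16 after depletion (95% interval -0.47 to 0.20, adjusted p = 0.507) and -0.40 ± 0.16 in the control (95% interval -0.73 to -0.07, adjusted p = 0.0517). The control change passed in 9 of 26 alternative settings, among them without the first control cytoplasmic sample (-0.55, adjusted p = 0.00832).

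Between the particles, the 20S core had the lower nuclear over cytoplasmic changes. The median log2 change of its 13 tested probe sets was -1.43 after depletion and -1.60 in the control, while the median of the 14 of the 19S particle was -1.001 after depletion and -0.97 in the control. The core median lay below that of the 19S particle in all 26 alternative settings, by 0.37 to 0.58 after depletion and by 0.52 to 0.73 in the control. On the normalised log2 scale the core mean exceeded that of the 19S particle on every cytoplasmic array. The difference was 0.46 to 0.51 after depletion and 0.38 to 0.60 in the control. In nuclei it was 0.03 to 0.24 after depletion and -0.18 to -0.02 in the control. This is a description of 27 probe sets with no test, and Rpn11 and, after depletion, Rpt5 lay further below 0 than the median of the core. Gene span, in base pairs of the annotated gene, also differed, with a median of 1201 in the core and 1818 in the 19S particle. Over the 27 probe sets, log2 span against the change gave Spearman's rho of 0.431 after depletion and 0.699 in the control. Within the core rho was -0.237 after depletion and 0.05 in the control, and within the 19S particle 0.38 and 0.442. The part of span in the difference between the particles was not tested. Across these 27 probe sets the changes in the 2 treatments correlated with Pearson's r = 0.607 and Spearman's rho = 0.599. The treatments share no array but were normalised together, and genes are not independent replicates.

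The 13 paralogs were mostly dim. In flies the alpha subunit genes marked T are known from the testis. The 11 that were not tested read between 17 and 684 over all arrays, with medians of 55.3 to 253. Of 8 probe sets for male germline genes 6 also fell below the filter, which by its setting leaves out 40% of all probe sets. Of 3 probe sets for neuron and muscle genes 1 was tested. Among the 2 male germline probe sets tested, 1 was called lower in depleted than in control nuclei. In that comparison 3.4% of all probe sets tested were called in either direction. Rpt3R, related to the ATPase Rpt3, read 329, 730.4 and 937 in nuclei and 947, 928 and 1153 in cytoplasm after depletion, and 448, 227 and 632 in nuclei and 737, 1031 and 744 in cytoplasm in the control. Its log2 changes of -0.76 ± 0.42 after depletion (95% interval -1.64 to 0.12, adjusted p = 0.141) and -0.82 ± 0.42 in the control (95% interval -1.70 to 0.06, adjusted p = 0.129) did not pass the test. Rpt4R, related to Rpt4, was the only tested member with positive fitted changes. It read 1049, 702 and 319.5 in nuclei and 408, 352 and 402 in cytoplasm after depletion, and 620.4, 625 and 293 in nuclei and 178, 149 and 298 in cytoplasm in the control. The fractions overlapped in both treatments, and the changes of 0.31 ± 0.45 after depletion (95% interval -0.64 to 1.26, adjusted p = 0.592) and 1.06 ± 0.45 in the control (95% interval 0.11 to 2.01, adjusted p = 0.0683) did not pass, the control change doing so in 6 of 25 alternative settings, among them without the third control nuclear (adjusted p = 0.0371), control cytoplasmic (0.0398) or depleted nuclear sample (0.0444).

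The next question was whether loss of U2AF50 altered the proteasome mRNAs within each fraction. In nuclei 0 of 29 members passed the limma test, where 3.4% of all probe sets tested did. The members had a smaller median SE than all probe sets tested (0.17 against 0.36), so they pass a threshold at smaller changes. At an unadjusted p under 0.05 there were 8 members, or 27.6%, against 16.4% of all probe sets. Their median log2 change was 0.06, against -0.05 over all probe sets (-0.13 against -0.15 with arrays centred on their medians, so its sign depends on the scaling), and all 3 depleted samples lay above the control samples for 4 members and below them for 3, patterns seen in 9.99% and 10.2% of all probe sets. In the cytoplasm 0 of 29 passed, where 2.57% of all probe sets did. Unadjusted p under 0.05 was found for 3 members, or 10.3%, against 15.8% of all probe sets, and the medians were 0.02 for the members and 0.04 for all probe sets. The depleted cytoplasmic samples lay above the control samples for 8 members and below them for 3, patterns seen in 14.5% and 14.3% of all probe sets.

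In nuclei the median log2 difference was 0.17 over the 20S core and -0.15 over the 19S particle. The core median was the higher in all 26 alternative settings, by 0.18 to 0.38. With arrays centred on their medians both lay below 0, at -0.08 for the core and -0.27 for the 19S particle. This difference between the particles was not tested. The core genes with an unadjusted p under 0.05 in the nucleus lay mostly above 0. Prosalpha6 averaged 4101 ± 221 in depleted nuclei and 3259 ± 572 in control nuclei (SD, n = 3 each), and its log2 difference of 0.43 (95% interval 0.12 to 0.74, adjusted p = 0.133) had the smallest adjusted p of the members there. Prosbeta4 averaged 6185 ± 464 in depleted and 5418 ± 183 in control nuclei, with a log2 difference of 0.35 (95% interval 0.10 to 0.60, adjusted p = 0.135). For both genes, and for Prosbeta2 at 0.39 (adjusted p = 0.184), all 3 depleted samples lay above all 3 control samples. Prosbeta7 lay the other way, at -0.28 (adjusted p = 0.286), and the dimmer Prosbeta6 probe set had the widest interval, 0.04 to 2.30 around 1.17 (adjusted p = 0.284). The 2 Prosbeta6 probe sets gave the only member calls in any setting of the comparisons between treatments. The brighter passed without the first depleted nuclear sample (0.56, adjusted p = 0.0338) and the dimmer without the third (1.82, adjusted p = 0.0475).

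In the 19S particle, Rpn3 stood at 0.37 in the nucleus (95% interval 0.04 to 0.70, adjusted p = 0.243), with all depleted samples above the control ones. Rpt4 stood at -0.50 (95% interval -0.92 to -0.07, adjusted p = 0.221) and Rpn8 at -0.60 (95% interval -1.11 to -0.08, adjusted p = 0.225), with all depleted samples below. Rpt4, an ATPase of the base, also gave the smallest adjusted p in the cytoplasm. It read 3018, 3128 and 3041 in depleted cytoplasm, against 5088, 3586 and 4036 in control cytoplasm. The groups did not overlap, and the log2 difference was -0.55 (95% interval -0.97 to -0.13, adjusted p = 0.18). Rpt5 at 0.38 and Rpn5 at 0.39 lay above 0 there, with adjusted p of 0.309 and 0.311. Of the paralogs, Rpt4R had a cytoplasmic difference of 0.95 (95% interval -0.00 to 1.90, adjusted p = 0.317).

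These missed thresholds do not show that the levels were equal, but the intervals set limits under the quantile scaling used. With the paralogs left aside, the 95% interval of the log2 difference lay within -1 to 1 for 25 of 27 probe sets in the nucleus, Prosbeta6 and Rpn8 being the exceptions. In the cytoplasm it did so for 26 of 27, with the dimmer Prosbeta6 probe set outside. The difference between the nuclear over cytoplasmic changes of the treatments, U2AF50 minus control, passed for 0 of 29 members in limma, where 0.167% of all probe sets passed. At an unadjusted p under 0.05 only Rpt5 did, or 3.45% of the members, against 13% of all probe sets. The intervals of this difference lay within -1 to 1 for 24 of 27 probe sets. These limits depend on the scaling. With arrays centred on their medians, the median of the 29 members moved from 0.06 to -0.13 in nuclei and from 0.02 to 0.26 in the cytoplasm. For the difference between the treatments it moved from 0.05 to -0.45. Intervals under that scaling are not given here. The GAPDH ratio, lower in depleted than in control cytoplasm, moves with the cytoplasmic comparison. Its part in these values was not tested beyond entering it as a covariate. In that cytoplasmic fit no member was called either, and only 50 of all probe sets tested were.

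**Figure D3:**
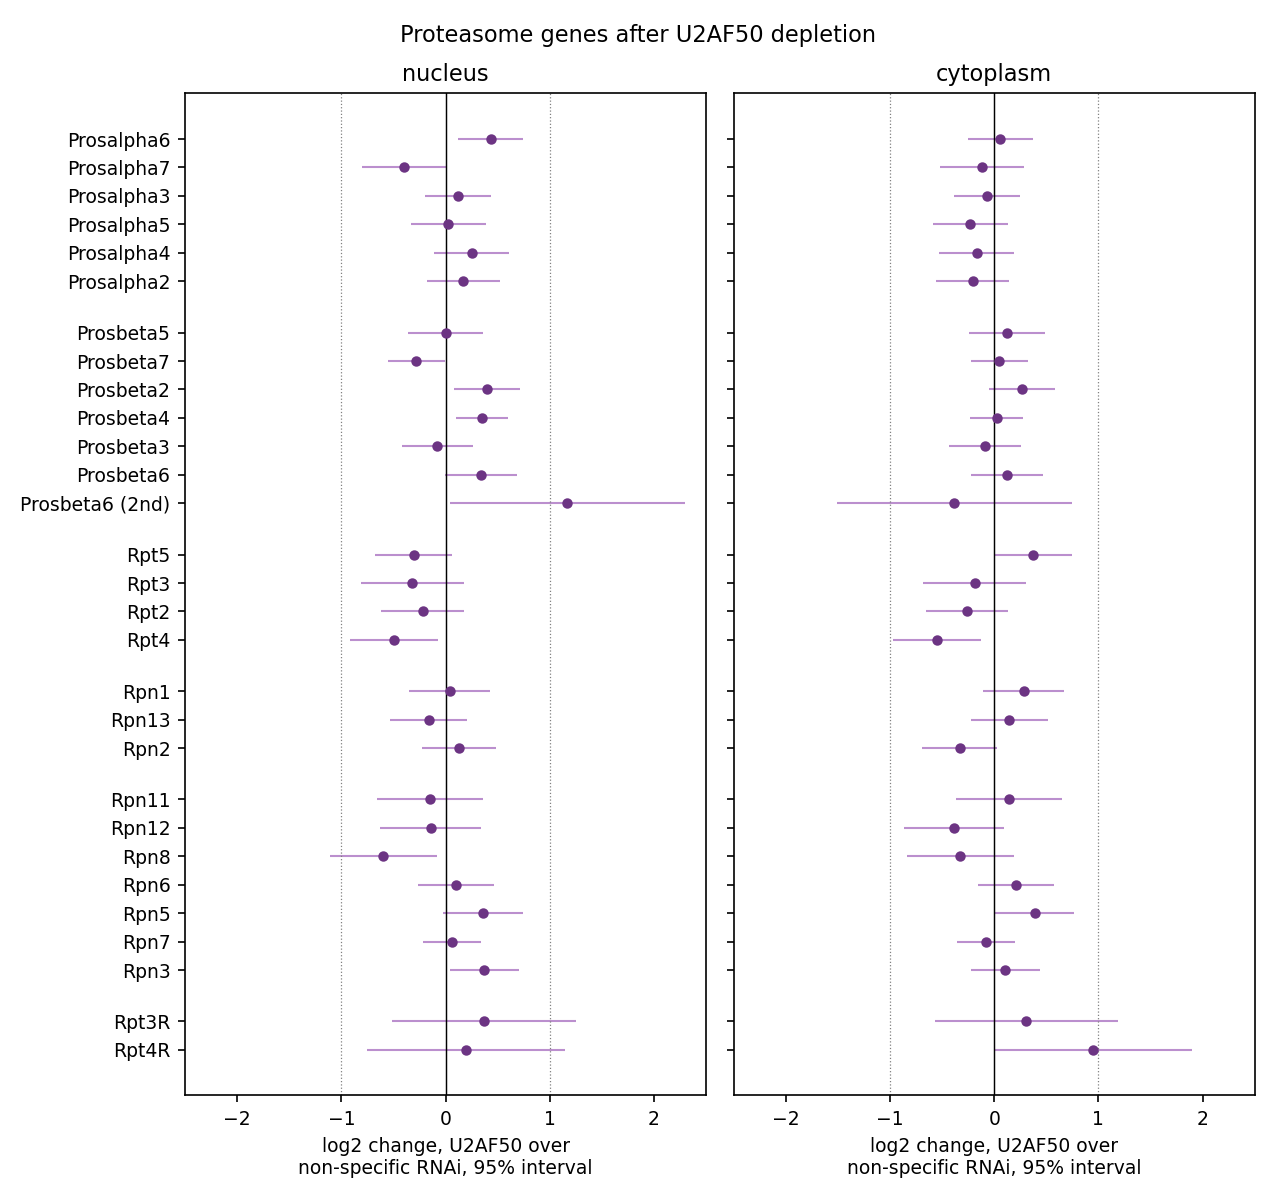
Log2 change of U2AF50-depleted over control samples for the 29 tested proteasome probe sets, in the nuclear fraction (left) and the cytoplasmic fraction (right). Points are fitted changes and bars their 95% intervals, from the fit over all 12 arrays with 3 per group. The interval of a probe set is equally wide in both fractions, so the bars do not show the scatter within a group. Dotted lines mark -1 and 1. No member passed an adjusted p of 0.05 in either fraction.

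The genes that work with the proteasome were divided in their nuclear over cytoplasmic changes. Their lists were chosen with earlier results of these data known, so the counts are a description, to be read beside the 30.9% of all probe sets that were lower in nuclei after depletion and the 25.2% that were in the control. Of 14 probe sets for accessory factors, 10 were lower in the nuclear fraction after depletion and 9 in the control, with medians of -1.30 after depletion and -1.05 in the control. Sem1, the smallest lid subunit, which the symbol rule does not include, changed by -1.55 ± 0.26 after depletion (adjusted p = 9.92e-05) and -2.24 ± 0.26 in the control (adjusted p = 1.50e-06). Pomp, the chaperone that builds the 20S core, changed by -1.81 after depletion and -1.47 in the control. Rad23, a shuttle protein for ubiquitinated substrates, was lower in nuclei after depletion at -1.81 (adjusted p = 4.81e-05) and did not pass in the control at -0.71 (adjusted p = 0.0559).

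PI31, a proteasome-binding protein named as an inhibitor from work in mammals, went the opposite way. It read 16559, 10371 and 11317 in nuclei and 2729, 2428 and 2739 in cytoplasm after depletion. In control cells it read 8532, 6339 and 5728 in nuclei and 2234, 2507 and 2240.1 in cytoplasm. The nuclear samples were the high ones throughout, with no overlap, and the log2 changes were 2.29 ± 0.18 after depletion (adjusted p = 9.83e-09) and 1.42 ± 0.18 in the control (adjusted p = 3.21e-06). PI31 was also the only accessory factor called in the nucleus on depletion, where it rose by 0.93 ± 0.18 (adjusted p = 0.0076) and 3.4% of all probe sets tested were called. In that comparison 10 of the 14 accessory probe sets had changes above 0, as did 3848 of all 8379 probe sets tested. The median of all probe sets moved from -0.05 to -0.15 with centred arrays, so such signs depend on the scaling. In the cytoplasm PI31 differed by 0.06 ± 0.18 (adjusted p = 0.904). The difference between its nuclear over cytoplasmic changes, 0.87 ± 0.25, did not pass (adjusted p = 0.169). Its nuclear rise missed the threshold without the third control nuclear sample (0.80, adjusted p = 0.0526) and in 2 other settings of 26.

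The transcription factor cnc, whose relatives in mammals induce proteasome genes, had 4 probe sets, of which 3 were bright enough to test and differed from each other. The first of the 3 read 1532, 1651 and 2433 in depleted nuclei and 331, 434 and 345 in depleted cytoplasm, against 2084, 2018 and 2271 in control nuclei and 205, 297 and 323 in control cytoplasm. Its nuclear samples were the high ones, with changes of 1.89 ± 0.30 after depletion (adjusted p = 5.03e-05) and 2.69 ± 0.30 in the control (adjusted p = 8.38e-07). Another changed by 1.86 after depletion (adjusted p = 0.000172) and 0.79 in the control (adjusted p = 0.0658), and the third did not pass in either. The partner of cnc, maf-S, was lower in nuclei, by -1.43 after depletion (adjusted p = 8.57e-05) and -1.72 in the control (adjusted p = 1.19e-05). Keap1, which holds cnc inactive, did not pass.

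Complexes built on the plan of the lid, and other large cytosolic assemblies, also held many genes that were lower in nuclei. Of 14 probe sets of eIF3, the translation initiation factor whose subunits resemble those of the lid, 13 were lower in nuclei in each treatment, with medians of -1.35 after depletion and -1.44 in the control. eIF3c stood at -1.77 after depletion and -1.51 in the control. The brighter of 2 probe sets for eIF3h stood at -1.20 after depletion and -1.88 in the control, and the dimmer one did not pass, at -0.44 after depletion (adjusted p = 0.46) and -0.93 in the control (adjusted p = 0.123). All 9 probe sets of the CCT chaperonin, which folds actin and tubulin, were lower, with medians of -1.33 after depletion and -1.13 in the control. CCT7 stood at -1.70 after depletion and the CCT2 probe set with the larger change at -1.53 in the control. The COP9 signalosome, which removes Nedd8 from cullins, was lower at 4 of 8 probe sets after depletion and at 6 of 8 in the control, with CSN7 at -2.27 after depletion and -1.77 in the control.

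Upstream in the ubiquitin pathway, 9 of 11 probe sets for ubiquitin genes and for E2 enzymes and their variants were lower after depletion and 7 of 11 in the control. Uev1A, an E2 variant that helps to build ubiquitin chains, stood at -1.87 after depletion and -1.82 in the control. Of 15 probe sets for cullin RING ligase genes 9 were lower in each treatment, among them SkpA, an adaptor of these ligases, at -2.02 after depletion and -1.56 in the control. Few deubiquitinases were called, with 4 of 21 probe sets lower and 1 higher after depletion, and 1 lower and 1 higher in the control. Their median was -0.28 after depletion, against -0.29 for all probe sets tested, and -0.14 in the control, against -0.27 for all. The higher one was Usp30, a mitochondrial deubiquitinase, at 1.93 ± 0.21 after depletion (adjusted p = 8.27e-07) and 2.31 ± 0.21 in the control (adjusted p = 7.44e-08).

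**Figure D4:**
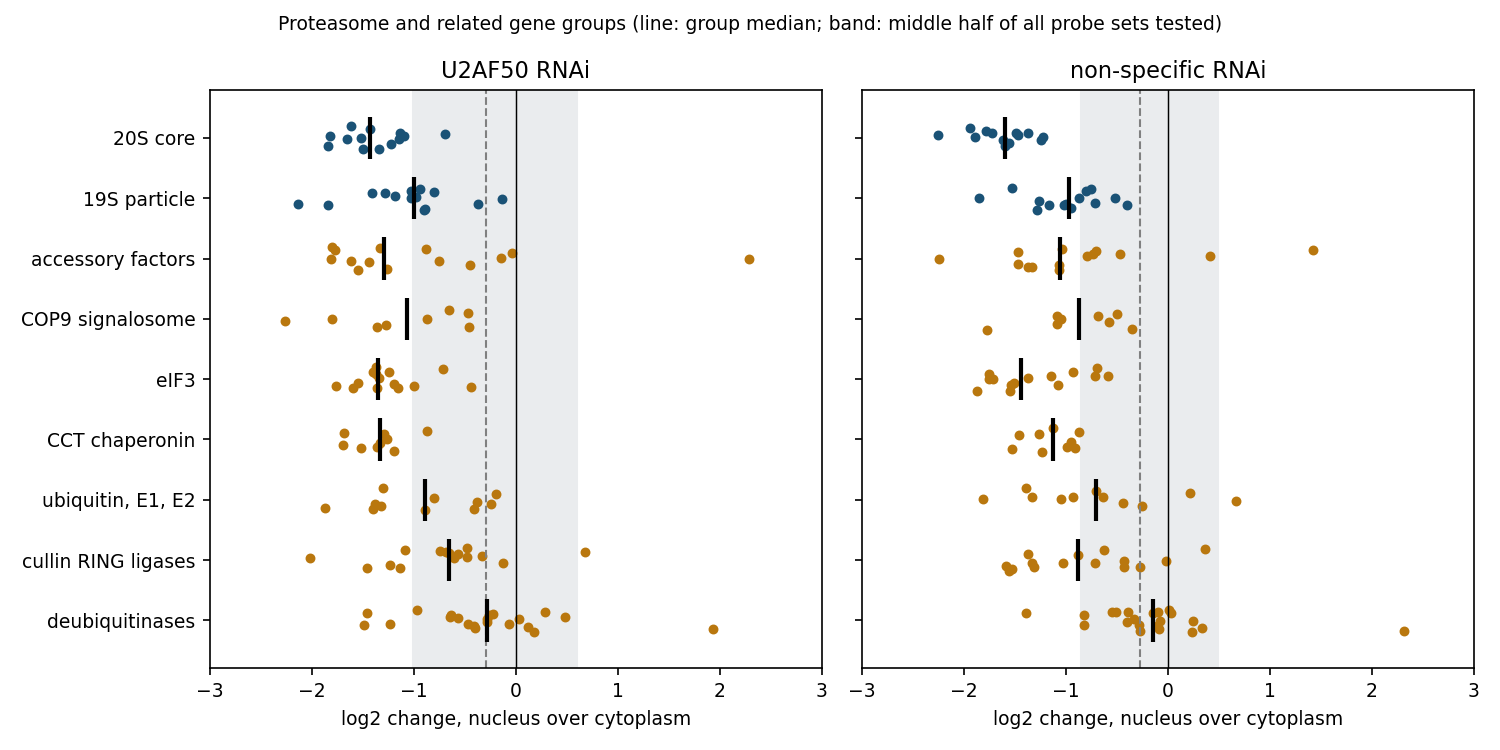
Log2 change of the nuclear over the cytoplasmic fraction for the proteasome probe sets (blue) and for related gene groups (ochre), after U2AF50 RNA interference (left) and non-specific RNA interference (right). Points are probe sets, black bars group medians, the dashed line the median of all probe sets tested and the grey band their interquartile range. The 20S core has the lowest median of the groups shown in both panels, and PI31 and Usp30 are the points furthest to the right.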

How the data were processed

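The authors deposited linear intensities of probe sets for 12 one-colour Affymetrix arrays. Read from the values, the mean intensity of every array, trimmed by 2% at either end, is 1000. How scans became intensities (software, background correction and probe summary) is not given in the sources used here, and no detection calls were used, so a dim intensity may be background. Genes were named from the platform annotation, and all 41 members matched RefSeq (assembly Release 6 plus ISO1 MT) by gene ID.

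For this re-analysis 44 Affymetrix control probe sets were left out, 94.9 (the 20th percentile of the rest) was added, values were put on the log2 scale and quantile normalised, since array medians spanned 0.46, and 8379 of 13966 probe sets with a mean above the 40th percentile were kept. limma 3.58.1 in R 4.3.3 (lmFit and eBayes with an intensity trend, 8 residual and 9 prior degrees of freedom) fitted 4 groups of 3 arrays and 5 contrasts, with Benjamini-Hochberg adjustment over all tested probe sets. The script was tested on simulated data. Fold changes are on the log2(intensity + 94.9) scale, which understates changes of dim genes. Groups came from the sample titles. Named with full values were members called between treatments, the 4 largest fraction changes, all tested members not called, Prosbeta2, Prosbeta5, Prosbeta4 and Prosalpha6. Of the related lists, genes among the 2 largest called changes of each were eligible to be named, most by their changes alone. Members and lists were chosen with earlier results of these data known. Same-numbered samples of different groups did not deviate together (12 pairs, r from -0.089 to 0.057), so replicate numbers were not used as pairs. Alternatives covered scaling, pseudocount, filter, variance model, a replicate block, quality covariates, probe sets per gene, the groups in the fit and each array left out. The number of arrays limits the precision.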

Additional observations from a re-analysis of the deposited data

Results flagged for a closer look

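U2af50, the gene targeted by the RNA interference, differed between the fractions in its response. Its log2 change after depletion was 0.21 in nuclei and -1.75 in the cytoplasm, and the difference of 1.96 between them (nuclear minus cytoplasmic, SE 0.37) passed the interaction test in limma (adjusted p = 0.0375). It missed the threshold in 14 of 25 alternative settings. Over all 25 the difference ranged from 1.58 to 2.28 and the adjusted p from 0.00441 to 0.133. Of the 14 settings, 9 left out an array, the highest adjusted p coming without the third control nuclear sample. No proteasome gene passed this test.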

How the results depend on the processing

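Across 26 alternative settings (25 for the interaction) 23 to 27 members were lower in nuclei after depletion and 25 to 27 in the control, and 0 members were called in the cytoplasmic comparison of treatments or in the interaction. Over all probe sets, fraction calls in either direction ranged from 2669 to 4638 after depletion and from 3106 to 3961 in the control. In the control fraction comparison 1 member, Rpt4R, was called higher with quantiles taken within each fraction, without an intensity trend and with array weights, and 0 to 1 with an array left out. In the nuclear comparison of treatments 0 to 1 was called higher with an array left out, that 1 being Prosbeta6.

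Scaling moved the medians. With arrays centred on their medians, the median of the members was -1.60 after depletion (all probe sets -0.52), -0.13 for depleted against control nuclei (all -0.15), 0.26 for depleted against control cytoplasm (all 0.21) and -0.45 for the interaction (all -0.38), so for nuclei and the interaction the sign depends on scaling. Relative to all probe sets the fraction median after depletion was -1.08 with centred or deposited values and -0.86 with quantiles. Not taken relative to all probe sets, the fraction median of the members after depletion was -1.23 with deposited values. Without the filter the median of the members was -0.94 after depletion, -0.998 in the control and -0.069 for depleted against control cytoplasm. With an array left out it ranged from -1.29 to -1.12 for the fractions after depletion and from -0.037 to 0.046 for the cytoplasm. The causes were not tested.

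Of single genes, changes of sign befell only values that had not passed, namely after depletion Rpn3 with the GAPDH covariate (0.062), Rpt3R with the hybridisation covariate (0.10) and Rpt4R without the first depleted nuclear sample (-0.048, against 0.70 without the third), and nuclear U2af50 without that same first sample (-0.017, against 0.35 without the third).

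With the replicate number as a block 25 members were lower after depletion and 27 in the control, with Rpn3 the member gained, and none was called between treatments. Same-numbered samples did not deviate together in their values, which cannot show whether they were prepared as pairs. The fit with the block says nothing of the size of an effect.

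Over all probe sets, the treatments differed in the cytoplasm at 215 probe sets, at 43 without an intensity trend, 50 with the GAPDH covariate, 61 with the hybridisation covariate, 125 without the filter, 361 with centred arrays, 580 with array weights and 52 to 378 with an array left out. In nuclei they differed at 285, with 155 to 178 without a trend, with array weights or with only the 2 groups fitted, and 124 to 354 with an array left out. The interaction passed at 14 and at 3 to 183 in the alternatives. The fraction comparison after depletion passed at 4088 and at 2669 with the hybridisation covariate. Of the calls, 36.8% were higher there and 28% with centred arrays. For depleted against control cytoplasm these shares were 68.8% and 87.8%, for nuclei 46.3% and 22.3%, and for the interaction 42.9% and 5.46%.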

Other observations

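A few genes that work beside the proteasome differed between treatments. Among all probe sets tested, 3.4% were called between treatments in nuclei and 2.57% in the cytoplasm. In depleted nuclei Uba3, a subunit of the enzyme that activates the ubiquitin-like protein Nedd8, read 1449.8, 1338 and 1653, against 569, 952 and 783 in control nuclei. It rose by 0.82 ± 0.21 on the log2 scale (± SE, limma, adjusted p = 0.043), the only called change among 15 cullin RING probe sets, and missed the threshold in 17 of 26 alternative settings, 10 of which left out an array, with an adjusted p of up to 0.18 without the first control nuclear sample. The deubiquitinase gene faf read 65.9, 103 and 339 in depleted nuclei, against 722, 689.5 and 546 in control nuclei, a log2 change of -1.82 ± 0.42 (adjusted p = 0.0235) that missed the threshold in 6 settings, among them without any 1 of the control nuclear samples and without the first or second depleted nuclear sample (adjusted p from 0.0586 to 0.103). Among eIF3 genes, eIF3m rose in depleted nuclei by 0.43 ± 0.11 (adjusted p = 0.0457) and eIF3b in depleted cytoplasm by 0.55 ± 0.14 (adjusted p = 0.0457), calls that were lost in 17 settings for eIF3m and 15 for eIF3b. Without a single array the adjusted p reached 0.149 for eIF3m (the third control nuclear sample) and 0.174 for eIF3b (the third depleted cytoplasmic sample).

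The polyubiquitin gene Ubi-p5E read 58385, 50541 and 49653 in depleted cytoplasm, against 47123, 48751 and 46136 in control cytoplasm, a log2 change of 0.60 ± 0.12 (limma, adjusted p = 0.0169). That probe set is marked by its name as one shared by a gene family, so the gene behind the signal is uncertain, and with the values as deposited the change was 0.16 (adjusted p = 0.62). The call was also lost without the first control cytoplasmic sample (0.51, adjusted p = 0.0934) and without the first (0.59, 0.0663) or the third depleted one (0.56, 0.0924). Of the plasmatocyte markers Col4a1, a collagen subunit, was lower in depleted than in control nuclei, with a log2 change of -0.90 ± 0.19 (adjusted p = 0.0164). It was the only 1 of 9 tested markers called there, where 3.4% of all probe sets were called. This call was not followed through the alternative settings.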
